A study of Mus musculus with 10 samples.

Results

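Type II hair cells (HCs) of the vestibular organs are the HCs that do not carry the calyx of type I HCs. The 178 cells described here were chosen by measured values: a barcode was taken as a type II HC when it held a unique molecular identifier (UMI) of 3 or more of the 6 HC genes Gfi1, Kncn, Tmc1, Pou4f3, Myo7a and Myo6, at least 1 UMI of Sox2, none of Adam11, and a UMI in at most 1 of the supporting cell genes Otog, Otogl, Otol1, Slitrk6 and Agr3. They were 178 of 1652 HCs so gated in the vestibular libraries, of 10424 vestibular cells kept, and of 17696 cells kept in the vestibular and cochlear libraries together. Sox2 and Adam11 differ between type II and type I HCs by construction, and no gene of this rule was tested.

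Vestibular HCs turn head movement and gravity into release of glutamate. Deflection of the stereocilia bundle, which stands beside a single kinocilium in vestibular HCs, opens transduction channels, the cell depolarises, and vesicles fuse at ribbon synapses. Type I HCs are flask-shaped and enclosed by an afferent calyx, while type II HCs are contacted by bouton endings of afferent fibres and directly by efferent fibres that release acetylcholine. Sox2 is a transcription factor shared by supporting cells and mature type II HCs, and Atoh1 is the transcription factor that starts HC differentiation.

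The libraries came from wild-type CBA/J mice labelled 22 months old, a group called old mice in the study, and no second age was analysed here. Male and female mice were used, and the organs were dissociated with collagenase IV. Tissue of several mice was pooled for each library, which was made with droplet 3′ chemistry that counts each captured transcript once, whatever its length. The 4 vestibular libraries were replicates 1, 3, 4 and 5, and values in this order are given below. The files of replicates 1 and 2 of each organ held nearly the same cells: over 13500 genes the vestibular pair gave a chi-square of 0.122 per gene, against 55.5 per gene for replicates 1 and 4, and all 22 type II barcodes of replicate 2 were also type II HCs in replicate 1, so the pair was counted as 1 sample and replicate 1 was used. Other pairs of libraries shared at most 41 barcodes, and 1 type II barcode was also present in another of these vestibular libraries.

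The libraries gave 26, 80, 38 and 34 type II HCs. They made up 15.1%, 10.4%, 8.78% and 12.2% of the gated vestibular HCs, and 10.8% of all (95% exact binomial interval 9.32% to 12.4%, which covers counting error only). The share rests on dissociated, captured cells and on the rule, and is not the share in the tissue. Of the other gated HCs, 1257 held Adam11 and no Sox2 and are called type I HCs here, 185 held neither gene and 32 held both. The median type II HC had 3334.5, 5350.0, 4326 and 6105.5 UMIs in the 4 libraries. Summed over cells, the type II profiles held 99892, 471589, 183651 and 202195 UMIs, so that 3 UMIs, used here as the floor of detection, correspond to 30.03 counts per 1000000 UMIs (CPM) in replicate 1 and 6.36 CPM in replicate 3.

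The label was checked against markers that the rule did not use. Calb2, which encodes the calcium buffer calretinin, was at 450.5, 314, 158 and 321 CPM in the type II HCs and at 42.9, 28.98, 23.95 and 20.5 CPM in the type I HCs of the same libraries (log2 fold change 3.36 ± 0.25 (SE), adjusted p = 5.38e-09, edgeR quasi-likelihood test with Benjamini-Hochberg adjustment, n = 4 libraries a group). Cfap45, which encodes a protein inside the microtubules of cilia, was at 250.3, 418, 436 and 356 CPM against 17.9, 14.1, 14.5 and 10.8 CPM (log2 fold change 4.66 ± 0.21 (SE), adjusted p = 4.57e-12, same edgeR test). Atoh1 was at 100.1, 78.5, 70.8 and 64.3 CPM against 0, 1.45, 0.855 and 0 CPM. None of these groups overlapped. Anxa4, an annexin found in type II HCs, was at 90.1, 89.1, 59.9 and 98.9 CPM against 39.3, 43.5, 37.6 and 31.2 CPM (log2 fold change 1.07 ± 0.23 (SE), adjusted p = 0.00167, edgeR), a difference that did not pass the threshold when type II HCs with any supporting cell gene were left out (adjusted p = 0.122, edgeR). Mapt, which encodes the microtubule-binding protein tau, was at 330.4, 108, 70.8 and 119 CPM against 91.2, 53.6, 65.01 and 60.3 CPM, highest in replicate 1 of both cell types and with overlap between them (log2 fold change 0.99 ± 0.297 (SE), adjusted p = 0.0264, edgeR). Without replicate 3 or replicate 5 its adjusted p was 0.101 or 0.106 in the same edgeR test. These markers were named with earlier results of the same data known and are a check of the label, not independent support.

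Spp1, which encodes osteopontin and is carried by type I HCs, was at 4555, 5475, 4688 and 7176 CPM in type II HCs and at 38569, 40016, 32729 and 34267 CPM in type I HCs (log2 fold change -2.79 ± 0.23 (SE), adjusted p = 1.98e-08, edgeR). Its level in type II HCs was above the 181, 436, 332 and 144 CPM of supporting cells in every library. Single type II HCs spread widely, with a median of 2673 Spp1 CPM, quartiles of 462 and 7201 CPM, and 10 of 178 cells above 20000 CPM. Of the type II HCs, 86.0% held a Spp1 UMI, against 44.6% of macrophages, a cell type that also makes some Spp1 (median depth 5168.5 and 2560.5 UMIs). Thinned to 1000 UMIs a cell, the shares were 69.1% and 26.8%.

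A UMI of Calb2 was seen in 55.6% of type II HCs (exact interval 48.0% to 63.0%), 9.0% of type I HCs and 0 of 280 macrophages of these libraries. For Cfap45 the shares were 74.2%, 5.09% and 0.357%, and for Atoh1 25.3%, 0.318% and 0 of 280. After thinning to 1000 UMIs, Calb2 was seen in 25.3% and 2.23% of type II and type I HCs and Cfap45 in 27.0% and 1.51%. Of the 4 markers Calb2, Anxa4, Atoh1 and Cfap45, at least 1 was seen in all but 16 type II HCs, and 12 cells held all 4. Of 1257 type I HCs, 919 held none of them.

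**Figure D1:**
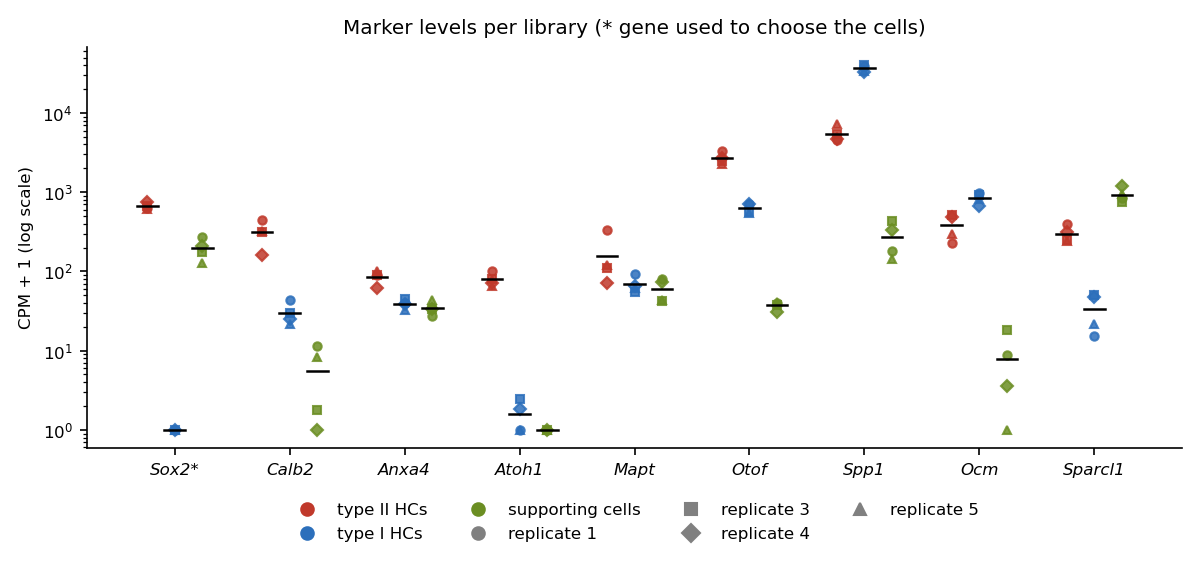
Level of each marker gene (vertical axis, CPM + 1 on a log scale) in type II HCs, type I HCs and supporting cells of the 4 vestibular libraries; points are libraries, with a shape for each replicate, and bars are means. The 4 type II values of Calb2, Atoh1 and Otof lie above all type I values, and those of Spp1 lie below them and above the supporting cells.

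Cells at the edges of the rule are described without a test. The 40 type II HCs with 1 Sox2 UMI had 339 Calb2 CPM and 6147 Spp1 CPM, and the 138 with at least 2 UMIs had 293 and 5488 CPM. The 185 gated HCs with neither Sox2 nor Adam11, just outside the rule, had 98.5 Calb2 CPM and 27243 Spp1 CPM. Just inside the limit on supporting cell genes, 54 type II HCs held 1 such gene, with 254 Calb2 CPM and 59.8 Otog CPM. Outside it, 105 Sox2-positive, Adam11-negative HCs held at least 2 and had 241 Calb2 CPM and 1708 Otog CPM. The 13 of them with exactly 2 had 465 Calb2 CPM and 126 Otog CPM. Just inside the limit on HC genes, 22 type II HCs with exactly 3 (median 1681 UMIs) had 414 Calb2 CPM and 0 Atoh1 CPM. Just outside that limit, 18 cells with exactly 2 (median 1635.5 UMIs) had 711 and 85.3 CPM. These 18 cells also had more of supporting cell genes, with 512 Slc1a3, 313 Gjb2 and 114 Otog CPM. The 22 cells inside had 94.0, 18.8 and 0 CPM.

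Leaving out mitochondrial and ribosomal protein genes, the most abundant transcripts of the type II HCs were the nuclear RNA Malat1 (49216 ± 15841 CPM, SD, n = 4), Gm42418 (12656 ± 9501 CPM), S100a1 (6305 ± 1365 CPM), Spp1 and Ptgds (5266 ± 2386 CPM). Ptgds was at a mean of 23274 CPM in macrophages and 6222 CPM in supporting cells, above its level in type II HCs, and Gm42418 at 16916 CPM in supporting cells. The others of the first 15 included, in falling order, Calm2, Pcp4, Skp1a, Hsp90ab1, H3f3b, Hsp90aa1, Chchd2, Acbd7 and Otof, at means between 2685 and 5015 CPM. Calm2 encodes calmodulin, Hsp90ab1 and Hsp90aa1 the cytosolic chaperone HSP90, and Skp1a a part of ubiquitin ligases. Pcp4, which encodes a small calmodulin-binding peptide, was at 2893, 5076, 6692 and 5134 CPM in type II HCs and at 354, 343, 616 and 649.5 CPM in type I HCs, with no overlap (log2 fold change 3.27 ± 0.28 (SE), adjusted p = 2.11e-08, edgeR). Acbd7, which encodes an acyl-CoA-binding protein, was at 2513, 3068, 3354 and 2507 CPM against 1132, 1376, 1409 and 1143 CPM (log2 fold change 1.11 ± 0.18 (SE), adjusted p = 9.46e-05, edgeR). Of these 15 genes, S100a1, Pcp4, Acbd7 and Otof were higher in type II than in type I HCs, and Spp1 and Calm2 were lower.

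How type II HCs differ from type I HCs of the same libraries was tested over 7230 genes. Of these, 590 were higher in type II HCs (8.16%) and 518 lower (7.16%) at an adjusted p under 0.05 (edgeR). The 4 library values did not overlap for 774 higher (10.7%) and 567 lower genes (7.84%). Without replicate 3, the deepest library, the counts were 356 and 293. Of the 590 genes higher in type II HCs, 115 (19.5%) had a still higher mean in supporting cells. The share was 33.4% of the 518 lower genes and 30.7% of all genes tested. Genes called higher were chosen for a high type II level, which by itself lowers this share, so no conclusion is drawn from it. Each library pools mice, so these p-values measure the spread between pools.

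**Figure D2:**
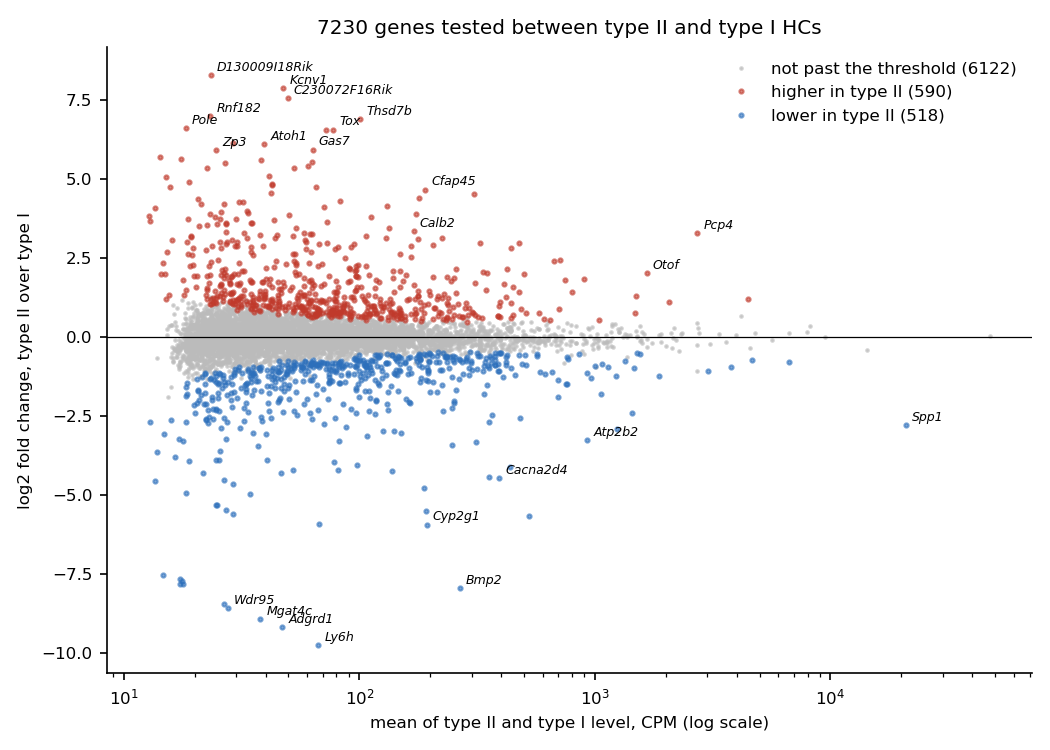
Log2 fold change of type II over type I HCs (vertical axis) against the mean level of both (horizontal axis, CPM, log scale) for the 7230 genes tested; red and blue points are the 590 genes higher and the 518 lower in type II HCs. Pcp4, Otof and Cfap45 are among the abundant genes on the type II side, and Spp1, Bmp2 and Atp2b2 on the type I side.

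The genes with the largest differences on the type II side included ion transport genes, regulators and unnamed transcripts. Kcnv1 (chr15:45106284-45114920, mm10), which encodes a potassium channel subunit that modifies other subunits, was at 170.2, 76.3, 87.1 and 44.5 CPM in type II HCs and at 1.79, 0, 0 and 0 CPM in type I HCs, where 1 UMI was seen in all, a ratio of 441 (95% interval 76.9 to 17654) from pooled UMIs. Slc8a1 (chr17:81373105-81738377), the plasma membrane sodium-calcium exchanger, was at 250.3, 76.3, 163 and 84.1 CPM against 0, 1.45, 0.855 and 1.08 CPM (log2 fold change 6.54 ± 0.48 (SE), adjusted p = 3.57e-09, edgeR). Both were highest in replicate 1, and neither overlapped between the cell types.

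Among regulators, Tox (chr4:6686353-6991557), which encodes an HMG-box nuclear protein, was at 140.2, 169.6, 136 and 168 CPM in type II HCs and at 0, 2.90, 0 and 0 CPM in type I HCs (log2 fold change 6.55 ± 0.39 (SE), adjusted p = 1.92e-10, edgeR), and at 89.03, 56.5, 54.03 and 43.2 CPM in supporting cells. Rnf182 (chr13:43615710-43670945), a ubiquitin ligase gene, was at 70.1, 53.01, 32.7 and 29.7 CPM in type II HCs against 1 UMI in all type I HCs, a pooled ratio of 249 (95% interval 42.4 to 10055). Atoh1 (chr6:64729125-64731245), given above, belonged to the same group (log2 fold change 6.096 ± 0.42 (SE), adjusted p = 1.33e-09, edgeR). Its 5 UMIs in type I HCs stood against 73 in type II HCs, although type II HCs held 957327 UMIs in all and type I HCs 5417216.

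Of genes for cell surface and cytoskeleton, Thsd7b (chr1:129273302-130219278), a thrombospondin-domain protein gene, was at 160.2, 178, 185 and 277 CPM in type II and 1.79, 1.45, 2.57 and 0 CPM in type I HCs (log2 fold change 6.88 ± 0.34 (SE), adjusted p = 1.70e-11, edgeR). Gas7 (chr11:67455437-67688990) was at 160.2, 93.3, 152 and 93.97 CPM against 0, 1.09, 4.28 and 1.08 CPM (log2 fold change 5.92 ± 0.398 (SE), adjusted p = 1.04e-09, edgeR), and Fmn1 (chr2:113327736-113716767), the actin nucleator formin 1, at 30.03, 78.5, 32.7 and 89.02 CPM against 0, 1.09, 0.855 and 0 CPM (log2 fold change 6.12 ± 0.51 (SE), adjusted p = 2.10e-08, edgeR). Gas7 was also at a mean of 59.7 CPM in macrophages, and Fmn1 at 30.1 CPM in supporting cells. Zp3 (chr5:135980099-135988624), known as an egg coat glycoprotein gene, was at 60.1, 31.8, 54.5 and 49.5 CPM in type II HCs, with 3 UMIs in all type I HCs, a pooled ratio of 77.3 (95% interval 24.7 to 390.4).

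Pole (chr5:110286306-110337474), the catalytic subunit gene of DNA polymerase epsilon, was at 30.03, 23.3, 43.6 and 49.5 CPM in type II HCs with 1 UMI in all type I HCs, a pooled ratio of 181 (95% interval 30.2 to 7373). A pair of long intergenic noncoding RNA genes had the same pattern. D130009I18Rik (chr14:104612791-104966783) was at 60.1, 69.98, 27.2 and 29.7 CPM in type II HCs and had no UMI in type I HCs, which puts it at least 94.3-fold higher in type II HCs when 3 UMIs over all type I HCs are taken as the floor. C230072F16Rik (chr17:80896793-80933045) was at 80.1, 104, 103 and 109 CPM, with 2 UMIs in type I HCs, a pooled ratio of 277 (95% interval 74.7 to 2322). These ratios and bounds cover counting error only. All 12 genes passed the edgeR test at adjusted p-values of 7.90e-08 or below, with no overlap of the library values. Passing and not overlapping were conditions of their selection.

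On the type I side, 10 of the 12 genes with the largest differences had no UMI in any of the 178 type II HCs. Ly6h (chr15:75551268-75567255), which encodes a membrane-anchored protein of the LY6 family, was at 161, 139, 135 and 101 CPM in type I HCs and at 0 CPM in every type II library, at least 42.7-fold lower in type II HCs against a floor of 3 UMIs over all type II HCs. On the same basis Adgrd1, an adhesion G protein-coupled receptor gene (chr5:129096750-129204599), was at least 26.04-fold lower. Mgat4c, a glycosyltransferase gene (chr10:101681487-102391469), was at least 24.9-fold lower. The same held for Wdr95 (21.2-fold), Mei1 (17.6-fold), Klhdc8a (11.2-fold), B3galt5 (11.02-fold) and the transcription factor gene Gbx2 (9.96-fold). It also held for the growth factor gene Fgf5 (8.78-fold) and Kcnj16 (9.31-fold), an inward rectifier gene that was far higher in supporting cells, at 534, 245, 414 and 209 CPM.

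Bmp2 (chr2:133552159-133562885), a secreted ligand of the TGF-beta superfamily, was at 0, 2.12, 0 and 4.95 CPM in type II HCs, 2 UMIs in all and so under the limit given below, and at 740.5, 514, 396 and 480.4 CPM in type I HCs, a pooled ratio of 242 (95% interval 67.01 to 2002). Cyp2g1 (chr7:26808892-26821205), a cytochrome P450 gene, was at 10.01, 6.36, 5.45 and 4.95 CPM against 470.4, 370.2, 332 and 346 CPM (log2 fold change -5.93 ± 0.300 (SE), adjusted p = 1.70e-11, edgeR). Over all type II HCs, 3 UMIs correspond to 3.13 CPM, the limit below which absence was not detectable.

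Gene lists were read as counts of members that passed the edgeR test, beside the 8.16% higher and 7.16% lower of all genes and the median log2 fold change of −0.01 over all genes tested. Hair bundle genes were mostly carried by both HC types. Of 14 genes of mechanotransduction and tip links, 10 were tested, 2 were higher and 1 lower in type II HCs (2 and 2 in the blocked fit), with a median log2 fold change of 0.09. Cib2, a calcium-binding partner of the transduction channel, was at 671, 643, 523 and 697 CPM in type II HCs and at 182, 169.5, 185 and 219.7 CPM in type I HCs (log2 fold change 1.68 ± 0.16 (SE), adjusted p = 9.00e-08, edgeR). Lhfpl5, a subunit of the channel complex, was at 661, 698, 702 and 499.5 CPM against 318, 350.3, 335 and 325 CPM (log2 fold change 0.88 ± 0.15 (SE), adjusted p = 2.15e-04, edgeR). Cib3, the relative of Cib2, was at 1802, 948, 751 and 1004 CPM against 1597, 1609, 1867 and 1418 CPM, which overlapped (adjusted p = 0.0584, edgeR, and 0.0015 with the library as a replicate block). Myo1h was at 20.02, 57.3, 87.1 and 54.4 CPM against 127, 105, 117 and 145 CPM and was lower (log2 fold change -1.13 ± 0.24 (SE), adjusted p = 0.00172, edgeR).

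Of 30 stereocilia actin core and link genes, 25 were tested, 4 were higher and 8 lower (5 and 10 in the blocked fit), with a median of −0.18. Espn, which encodes the actin bundler espin, was at 1081, 1103, 1323 and 1093 CPM in type II HCs and at 2906, 2417, 2919.6 and 2149 CPM in type I HCs (log2 fold change -1.24 ± 0.17 (SE), adjusted p = 1.95e-05, edgeR). Ptprq, a shaft connector phosphatase gene, was at 651, 791, 708 and 890.2 CPM against 1620.4, 1519, 1490.2 and 2176 CPM (log2 fold change -1.22 ± 0.19 (SE), adjusted p = 5.75e-05, edgeR), and Xirp2, an actin cross-linker gene, at 741, 905, 719 and 826 CPM against 1647, 1479.7, 1346 and 1407 CPM (log2 fold change -0.94 ± 0.17 (SE), adjusted p = 2.92e-04, edgeR). All 3 were lower in type II HCs with no overlap. Espnl, Myo15, Strc, Fscn2 and Clic5 were lower as well. On the higher side were Myo3a, the myosin IIIa gene, at 80.1, 86.9, 65.3 and 129 CPM against 10.7, 16.3, 23.95 and 18.3 CPM (log2 fold change 2.28 ± 0.28 (SE), adjusted p = 2.97e-06, edgeR), the actin genes Actg1 and Actb, and Gpsm2, whose call was lost without replicate 3 (adjusted p = 0.0884, edgeR) and without replicate 5 (0.104, edgeR). Actg1 and Actb were also above 1000 CPM in supporting cells.

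Kinocilium and motile axoneme genes were present at similar summed levels in both HC types, 10591, 9167, 9605 and 8759 CPM in type II HCs and 10109, 9293, 10058 and 9566 CPM in type I HCs. Of 47 such genes, 45 were tested, 2 were higher and 10 lower in type II HCs, with a median log2 fold change of −0.16. The blocked fit gave 5 higher and 14 lower. Both higher genes encode proteins of the ciliary axoneme. Cfap45 is given above, and Cfap52 was at 471, 481, 289 and 292 CPM in type II HCs and at 143, 119, 82.1 and 86.2 CPM in type I HCs (log2 fold change 1.78 ± 0.21 (SE), adjusted p = 1.86e-06, edgeR). Among the lower genes, Cfap126 was at 260.3, 274, 239.6 and 242 CPM against 576, 552, 476 and 475 CPM (log2 fold change -1.09 ± 0.16 (SE), adjusted p = 2.38e-05, edgeR), and Rsph4a, a radial spoke gene, at 100.1, 61.5, 65.3 and 44.5 CPM against 188, 171, 163 and 173 CPM (log2 fold change -1.51 ± 0.198 (SE), adjusted p = 7.94e-06, edgeR). Pifo, Rsph1, Armc4, Cfap43, Ccdc40, Dnaic1, Nme7 and Dnah10 were also lower, Dnah10 not without replicate 3 (adjusted p = 0.308, edgeR) or replicate 5 (0.0703). Dnah10, with 12 type II UMIs in all, was also not called in DESeq2 (adjusted p = 0.0667). In edgeR it was lost when type II HCs needed at least 2 Sox2 UMIs (adjusted p = 0.0647). It was lost as well without cells above 2 times the median UMIs (adjusted p = 0.0601, edgeR).

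Ciliary genes are known targets of RFX factors, which bind the X-box, and the core letters GTTGCC of this motif were looked for on both strands of RefSeq promoter windows (GRCm38.p6, 250 bases before to 50 after a gene's start). Of 40 listed genes with a window, 20 held the letters (50%), against 14.1% of all 27025 genes with a window. Among genes that passed the test, the letters stood in the windows of 3 of 7 genes lower in type II HCs and 0 of 2 higher. The full X-box motif, which contains the core, stood in the window of 1 listed gene and in 0.298% of all windows. A match is a description of letters, not of a bound site. For a pair of lower genes the match lay upstream of the start that the RefSeq window uses, and 30 bases around it on the gene's own strand are printed, with the core in capitals, so that the position of the motif can be seen: chr1:164307524-164307553 on the plus strand for Nme7, 130 bases before that start, and chr5:124725053-124725082 on the plus strand for Dnah10, 14 bases before that start. In the GENCODE annotation used for positions elsewhere, Nme7 starts at base 164304121, so that its stretch lies inside the gene, and Dnah10 starts at base 124725085, after its stretch.
Nme7: aggtggcgtcgcGTTGCCccaggcgatgag
Dnah10: cgcgctggcgccGTTGCCcaggtccccgtt

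At the ribbon synapse, 26 genes were listed and 19 tested, of which 2 were higher and 4 lower in type II HCs (5 and 5 in the blocked fit), with a median of 0.31. Otof, which encodes otoferlin, the calcium sensor of vesicle release, was at 3324, 2502, 2679 and 2235 CPM in type II HCs and at 712, 560.4, 711 and 544 CPM in type I HCs (log2 fold change 2.02 ± 0.18 (SE), adjusted p = 4.08e-08, edgeR). Slc17a8, the vesicular glutamate transporter VGLUT3, was at 901, 914, 822 and 801 CPM against 111, 106, 93.2 and 111 CPM, and was not tested because it helped to define cochlear inner hair cells. Syt1 was at 140.2, 123, 267 and 89.02 CPM against 57.2, 80.4, 109 and 65.7 CPM and was higher (adjusted p = 0.032, edgeR), but not when any of replicates 1, 3 or 4 was left out (adjusted p between 0.0638 and 0.0808).

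Cacna2d4, an auxiliary calcium channel subunit gene, had the largest difference of the listed synapse genes, at 20.02, 38.2, 32.7 and 39.6 CPM in type II HCs and at 975, 691, 748 and 598 CPM in type I HCs (log2 fold change -4.47 ± 0.24 (SE), adjusted p = 2.91e-11, edgeR). Cabp1, a calmodulin-like channel regulator gene, was at 0, 4.24, 0 and 0 CPM against 26.8, 27.2, 24.8 and 28.01 CPM (log2 fold change -3.65 ± 0.61 (SE), adjusted p = 1.40e-04, edgeR). Homer2 and Erc2 were lower as well. Cabp2, the relative of Cabp1, was at 1892, 1684, 2096 and 1434 CPM against 1254, 1409, 1583 and 1023 CPM, which overlapped (adjusted p = 0.222, edgeR, and 0.0101 in the blocked fit).

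Of 30 potassium and HCN channel genes, 10 were tested, 4 were higher and 4 lower in type II HCs, with a median of 0.30. Kcnh8 was at 90.1, 218, 196 and 203 CPM in type II HCs and at 30.4, 37.7, 35.9 and 46.3 CPM in type I HCs (log2 fold change 2.25 ± 0.22 (SE), adjusted p = 1.44e-07, edgeR). Kcnj2, an inward rectifier gene, was at 80.1, 46.7, 54.5 and 64.3 CPM against 19.7, 17.7, 8.55 and 19.4 CPM (log2 fold change 1.74 ± 0.31 (SE), adjusted p = 3.54e-04, edgeR), and Kcnh7 at 130.1, 155, 201 and 188 CPM against 71.5, 78.6, 72.7 and 82.9 CPM (log2 fold change 1.08 ± 0.18 (SE), adjusted p = 1.14e-04, edgeR). Lower were Kcna10, at 521, 413, 332 and 376 CPM against 1366, 1147, 959 and 892 CPM (log2 fold change -1.49 ± 0.18 (SE), adjusted p = 3.68e-06, edgeR), the auxiliary subunit gene Kcnab1, at 10.01, 61.5, 70.8 and 74.2 CPM against 633, 601, 476 and 568 CPM (log2 fold change -3.31 ± 0.24 (SE), adjusted p = 3.33e-09, edgeR), and Kcnma1 and Kcnj16. Of 9 sodium channel genes only Scn8a was tested, at 40.04, 12.7, 5.45 and 4.95 CPM against 25.04, 23.2, 20.5 and 24.8 CPM (adjusted p = 0.182, edgeR).

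Of the 14 listed genes of the efferent receptor group 4 were tested, 1 higher and 2 lower in type II than in type I HCs. Chrna9 and Chrna10, the subunits of the nicotinic receptor of HCs, were at 190.2, 165, 131 and 223 and at 390.4, 193, 256 and 272 CPM in type II HCs. In type I HCs they were at 302, 316, 254 and 297 and at 646, 378, 448 and 419 CPM. Chrna9 did not overlap and had a log2 fold change of -0.799 ± 0.18 (SE, adjusted p = 0.00289) in the edgeR test, and its adjusted p was 0.0694 without replicate 3. Chrna10 overlapped between the cell types in 1 library of type II HCs and differed by -0.89 ± 0.202 (SE, adjusted p = 0.00310) in the same edgeR test. Chrna1, another nicotinic subunit gene, was at 40.04, 67.9, 49.01 and 29.7 CPM against 51.9, 42.7, 38.5 and 52.8 CPM and did not pass the threshold (log2 fold change 0.12 ± 0.26 (SE), adjusted p = 0.85, edgeR). Calcrl, the calcitonin receptor-like receptor gene, was at 20.02, 46.7, 81.7 and 54.4 CPM against 1.79, 4.71, 3.42 and 4.31 CPM and was higher (log2 fold change 3.597 ± 0.38 (SE), adjusted p = 4.32e-07, edgeR). Ramp1, which encodes a partner of this receptor, had 4 UMIs in type II HCs and was not tested.

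Calcium handling genes differed in both directions. Of 21 listed, 16 were tested, 4 were higher and 8 lower in type II HCs (4 and 9 in the blocked fit), with a median of −0.71. Among pumps, Atp2b1 was at 390.4, 636, 713 and 504 CPM in type II HCs and at 138, 120.3, 146 and 139 CPM in type I HCs (log2 fold change 2.02 ± 0.17 (SE), adjusted p = 3.15e-08, edgeR), while Atp2b2, the pump known from stereocilia, was at 170.2, 144, 185 and 232 CPM against 1789, 1438, 1852 and 1602 CPM (log2 fold change -3.26 ± 0.196 (SE), adjusted p = 1.92e-10, edgeR). The reticulum pump gene Atp2a2 and the pump gene Atp2b4 were lower as well. Among buffers and binding proteins, S100a1 was at 6827, 5479, 7972 and 4941 CPM against 2030.0, 2821, 3789 and 1769 CPM and was higher (log2 fold change 1.204 ± 0.23 (SE), adjusted p = 7.14e-04, edgeR), with a mean of 5377 CPM in supporting cells. Ocm, which encodes oncomodulin, was at 230.2, 509, 490.1 and 297 CPM against 971, 922, 666 and 829 CPM and was lower (log2 fold change -1.16 ± 0.21 (SE), adjusted p = 4.00e-04, edgeR), although a larger share of type II than of type I HCs held an Ocm UMI, 28.1% against 16.4%, or 17.4% against 13.8% after thinning. Pvalb, Sri and Calm2 were lower too, but Calm2 not without replicate 3 (adjusted p = 0.0547, edgeR).

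Transcription factor genes of HCs that passed the test were mostly higher in type II HCs. Of 40 listed, 25 were tested, 13 were higher in type II HCs and 1 was lower, with a median of 0.79. Besides Atoh1, the largest differences among them were those of Bcl11a, at 20.02, 36.05, 27.2 and 19.8 CPM in type II HCs and at 0, 1.45, 0.855 and 3.23 CPM in type I HCs (log2 fold change 4.07 ± 0.48 (SE), adjusted p = 1.74e-06, edgeR), and of Sox21, at 80.1, 72.1, 65.3 and 34.6 CPM against 3.58, 4.35, 3.42 and 2.15 CPM (log2 fold change 3.98 ± 0.35 (SE), adjusted p = 3.70e-08, edgeR). Prox1, Barhl1, Tshz2, Tbx2, Nfia, Nfib, Zfhx3, Sox4 and Isl1 were also higher. Tbx2, which sets inner hair cell fate in the cochlea, was at 160.2, 93.3, 98.01 and 84.1 CPM against 17.9, 11.95, 23.1 and 9.69 CPM. Among the 13 genes, Tshz2, Nfib, Zfhx3, Sox4, Sox21 and Tbx2 had a higher mean in supporting cells than in type II HCs, and Atoh1 and Barhl1 had means of 0 and 0.322 CPM there. Eya1 was the lower gene, at 80.1, 134, 54.5 and 104 CPM against 236, 189.8, 179.6 and 215 CPM (log2 fold change -1.06 ± 0.21 (SE), adjusted p = 0.00105, edgeR), but not when cells were gated after thinning to 1000 UMIs (adjusted p = 0.307, edgeR).

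Of 25 Notch pathway genes, 10 were tested, 3 higher and 1 lower. Mfng, a glycosyltransferase that modifies Notch receptors, was at 100.1, 23.3, 54.5 and 34.6 CPM in type II HCs and at 0, 1.09, 0 and 1.08 CPM in type I HCs (log2 fold change 5.51 ± 0.58 (SE), adjusted p = 4.43e-07, edgeR). The ligand gene Jag2 and the effector gene Heyl were higher, both not without replicate 3 (adjusted p = 0.112 and 0.245, edgeR), and Heyl not without replicate 4 or 5 (0.0569 and 0.0922). Dner, a noncanonical ligand gene, was at 170.2, 168, 125 and 138 CPM against 304, 338, 384 and 357 CPM and was lower (log2 fold change -1.26 ± 0.17 (SE), adjusted p = 1.01e-05, edgeR). In the Wnt and BMP list, 14 of 36 genes were tested, 1 was higher and 6 were lower in type II HCs (2 and 7 in the blocked fit), with a median of −0.91. Next to Bmp2, the lower genes were Bmp7, the BMP targets Id2, Id3 and Smad7, and Wnt5a. Smad7 was at 20.02, 36.05, 38.1 and 49.5 CPM against 199, 162, 193 and 179.9 CPM (log2 fold change -2.33 ± 0.22 (SE), adjusted p = 8.47e-08, edgeR), and Wnt5a at 0, 29.7, 32.7 and 9.89 CPM against 163, 154, 165 and 149 CPM (log2 fold change -2.85 ± 0.29 (SE), adjusted p = 2.30e-07, edgeR). Id4 was at 1091, 755, 577 and 608 CPM against 674, 530.3, 430.3 and 411 CPM (adjusted p = 0.121, edgeR, and 0.00111 in the blocked fit).

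Of 18 core planar polarity genes, 7 were tested, 4 were higher and none was lower in type II HCs, with a median log2 fold change of 1.18. Celsr1, a large polarity cadherin gene, was at 120.1, 119, 191 and 114 CPM in type II HCs and at 0, 7.97, 11.98 and 4.31 CPM in type I HCs (log2 fold change 4.11 ± 0.34 (SE), adjusted p = 1.77e-08, edgeR). Vangl2 was at 30.03, 59.4, 27.2 and 44.5 CPM against 3.58, 2.90, 0.855 and 1.08 CPM (log2 fold change 4.21 ± 0.42 (SE), adjusted p = 2.23e-07, edgeR) and Vangl1 at 80.1, 42.4, 38.1 and 39.6 CPM against 5.37, 4.71, 2.57 and 4.31 CPM (log2 fold change 3.32 ± 0.36 (SE), adjusted p = 6.10e-07, edgeR). Prickle2 was the fourth. None of the Celsr1, Vangl1 and Vangl2 values overlapped. In supporting cells the means of Celsr1, Vangl2 and Vangl1 were 117, 57.2 and 64.5 CPM, near those of type II HCs.

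Guidance and adhesion genes gave 3 higher and 1 lower of 13 tested (4 and 1 in the blocked fit), from 46 listed. Epha4 was at 230.2, 223, 289 and 242 CPM in type II HCs and at 17.9, 22.1, 27.4 and 15.1 CPM in type I HCs (log2 fold change 3.44 ± 0.198 (SE), adjusted p = 1.06e-10, edgeR), Sema3e, a secreted semaphorin gene, at 200.2, 112, 87.1 and 129 CPM against 10.7, 17.02, 12.8 and 15.1 CPM (log2 fold change 2.98 ± 0.26 (SE), adjusted p = 3.76e-08, edgeR), and Cntn1 was higher with a mean of 363 CPM in supporting cells. Plxna4, a semaphorin receptor gene, was at 130.1, 72.1, 21.8 and 44.5 CPM against 377, 207, 224 and 232 CPM and was lower (log2 fold change -2.09 ± 0.29 (SE), adjusted p = 1.85e-05, edgeR). Of 31 granin, neuropeptide and trophic factor genes, 6 were tested and 3 were lower. Bdnf, the neurotrophin gene, was at 190.2, 316, 376 and 317 CPM against 1286, 1061, 1019 and 1029.7 CPM, with no overlap (log2 fold change -1.900 ± 0.19 (SE), adjusted p = 1.59e-07, edgeR), and Scg3 and Scg5 were lower with all libraries but not without replicate 3 (adjusted p = 0.338 and 0.104, edgeR). Of 28 neuronal cytoskeleton genes, 12 were tested, 5 were higher (Map1b, Map2, Map4, Mapt and Dpysl2) and Tubb2a was lower (5 and 3 in the blocked fit). Map4 did not pass without replicate 3 (adjusted p = 0.0554, edgeR). Map1b was at 661, 780.3, 822 and 702 CPM against 436, 427, 452 and 368 CPM (log2 fold change 0.76 ± 0.15 (SE), adjusted p = 8.18e-04, edgeR).

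Growth arrest and immediate early genes that passed the test were mostly higher in type II HCs. Of 19 cyclin-dependent kinase inhibitor, cyclin and p53 genes, 11 were tested, 2 were higher and 1 lower (3 and 1 in the blocked fit). Cdkn1a, the p21 gene, was at 20.02, 36.05, 27.2 and 69.2 CPM in type II HCs and at 7.15, 7.97, 6.84 and 9.69 CPM in type I HCs (log2 fold change 2.24 ± 0.37 (SE), adjusted p = 1.26e-04, edgeR), Cdkn1b, the p27 gene, was at 100.1, 91.2, 125 and 74.2 CPM against 30.4, 41.7, 42.8 and 42.01 CPM (log2 fold change 1.18 ± 0.22 (SE), adjusted p = 4.03e-04, edgeR), and Cdkn2d was lower, but not without type II HCs that held a supporting cell gene (adjusted p = 0.0796, edgeR) or when gated after thinning (0.207). Of 21 immediate early and dissociation response genes, 6 were tested and 3 were higher. These were Btg2, at 40.04, 80.6, 109 and 93.97 CPM against 8.94, 7.24, 8.55 and 10.8 CPM (log2 fold change 3.23 ± 0.297 (SE), adjusted p = 6.79e-08, edgeR), and the transcription factor genes Klf6 and Jun.

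Of 23 heat shock and chaperone genes 17 were tested, with Hspa2 higher and Hsph1 lower in type II HCs (2 and 2 in the blocked fit). Of 23 metallothionein and antioxidant genes 19 were tested, with Mt2, Nfe2l2 and Gsta4 higher, Mt2 not without type II HCs that held a supporting cell gene (adjusted p = 0.0559, edgeR) or when gated after thinning (0.643), Gsta4 not without replicate 5 (0.143), and Gstm1 lower, not without replicate 1 or 3 (0.0505 and 0.157). In the blocked fit 7 were higher. Of 24 glycolysis and creatine genes 15 were tested, with Ldhb, a lactate dehydrogenase gene, at 761, 755, 615 and 692 CPM against 249, 275, 241 and 236 CPM (log2 fold change 1.43 ± 0.15 (SE), adjusted p = 4.00e-07, edgeR) and Pfkm lower, not without replicate 3 (adjusted p = 0.0661), while the blocked fit gave 2 higher and 3 lower. B2m was higher and H2-D1 lower of 5 tested antigen presentation genes from 15 listed, and both had means above 300 CPM in supporting cells.

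Of 81 tested genes of the ribosomal list 2 were higher and none lower in type II HCs (5 and 5 in the blocked fit), namely Rps9 and Rps6ka6, which encodes a kinase, of 85 tested nuclear genes of complexes I to V 2 were higher and 3 lower (2 and 13), and of 35 proteasome genes and 13 mitochondrially encoded genes none passed the threshold (the blocked fit called 1 of the latter, mt-Co1). Rps9 was not called without replicate 3, 4 or 5 (adjusted p = 0.112, 0.071 and 0.2025, edgeR). The medians of these lists lay between −0.11 and 0.09.

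Narrower gates ended other calls besides those of Eya1, Cdkn2d and Mt2. When type II HCs with a UMI of any supporting cell gene were left out, besides Anxa4, the calls of Mapt (adjusted p = 0.129), Gpsm2 (0.0768), Gstm1 (0.129), Heyl (0.0997) and Scg3 (0.1155) were lost (edgeR). When cells were gated after thinning, which left 48 type II HCs, those of Actg1 (0.179), Espnl (0.2695), Homer2 (0.616), Jag2 (0.835), Map1b (0.0735), Kcnh7 (0.0736), Mgat4c (0.0566), Hsph1 (0.1075), Calm2 (0.133), Scg3 (0.156), Scg5 (0.141), Syt1 (0.941) and Rps9 (0.1) were lost (edgeR). Scg3 was also lost without replicate 5 (0.107) and Scg5 without replicate 1 (0.0754) or 5 (0.0683, edgeR).

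**Figure D3:**
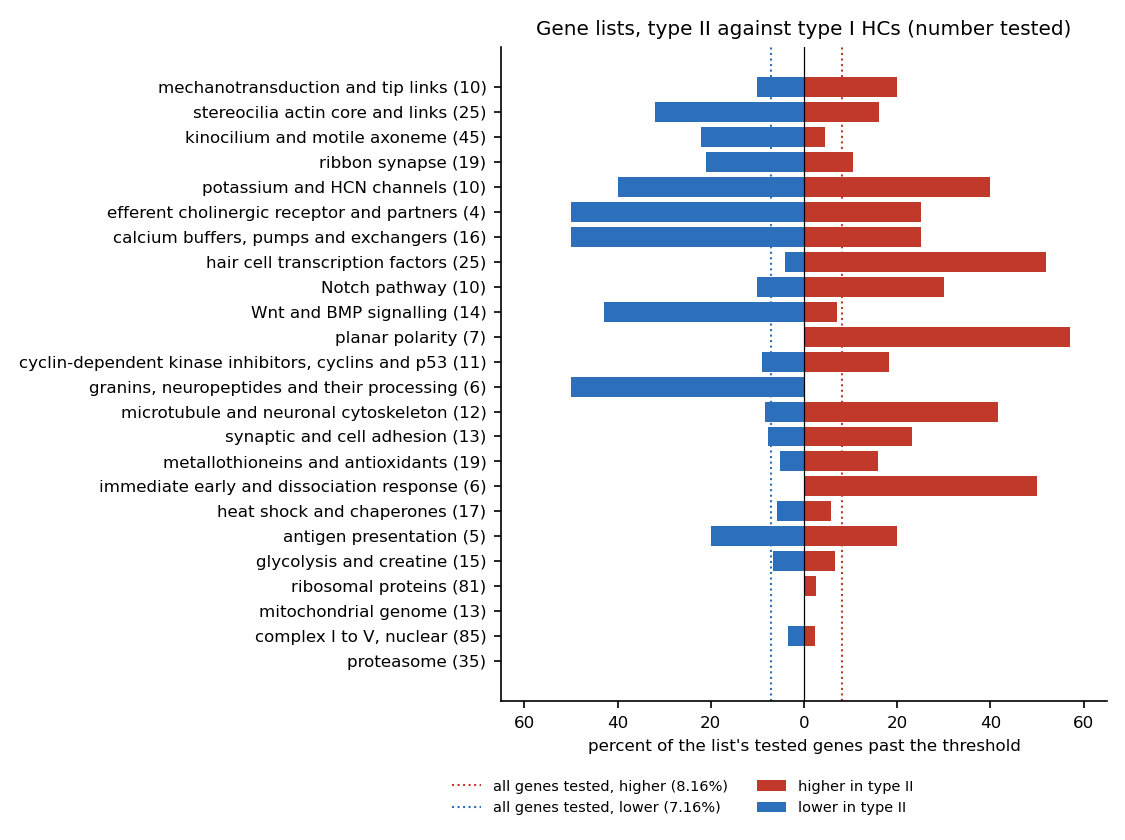
Percent of the tested genes of each list that passed the edgeR test (horizontal axis), to the right for genes higher and to the left for genes lower in type II than in type I HCs, with the number tested in brackets; dotted lines are the 8.16% and 7.16% of all genes tested. Planar polarity and transcription factor genes extend to the right, Wnt and BMP, calcium and granin genes to the left, and the housekeeping lists stay inside the dotted lines. The 2 lists with at most 2 tested genes are not drawn, and several others hold fewer than 10.

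Against supporting cells of the same libraries, type II HCs had most genes of the ribosomal list lower. Over 5683 genes tested, 1353 were higher (23.8%) and 1468 lower (25.8%) in type II HCs at an adjusted p under 0.05 (edgeR). Without composition scaling (TMM) the split was 1776 higher and 1136 lower, and the median log2 fold change of all genes moved by 0.27, so directions near 0 depend on the scaling. This comparison and the one with type I HCs share the type II libraries.

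Genes on the HC side with the largest differences were Fgf12, at 90.1, 65.7, 98.01 and 119 CPM in type II HCs and 0 UMIs in supporting cells (at least 77.9-fold higher), Atoh1 (at least 69.4-fold), Frrs1l (at least 57.01-fold) and Gm4450 (at least 49.4-fold). Gm904 was at 100.1, 178, 201 and 198 CPM with 1 UMI in supporting cells, a pooled ratio of 487 (95% interval 86.3 to 19364), and Ralyl at 240.3, 284, 196 and 312 CPM with 2 UMIs, a ratio of 366 (95% interval 100.4 to 3041). Fgf12 encodes an intracellular regulator of sodium channels, Frrs1l a factor for AMPA receptor assembly, and Ralyl an RNA-binding protein. None of these genes was found on the supporting cell side in more than 2 UMIs. Floors are 3 UMIs over all 729 supporting cells.

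On the supporting cell side, 6 genes were at 0 in all type II HCs. Kcnj16 was at least 105-fold lower in type II HCs, Scrg1 103-fold, Prom2 45.8-fold, Abca13 41.7-fold, Tecta 39.8-fold and Vstm4 29.5-fold. Tecta encodes alpha-tectorin, a matrix protein above sensory epithelia, and was at 115, 155, 96.5 and 75.6 CPM in supporting cells. All 12 genes passed the edgeR test, a condition of their selection, at adjusted p-values of 2.56e-05 or below. Of 81 tested genes of the ribosomal list, which also holds genes of kinases of a ribosomal protein, 71 were lower in type II HCs and none was higher, and without composition scaling 59 were lower and none was higher.

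Against the 54 inner hair cells (IHCs) of the cochlear libraries, 5, 36, 6 and 7 in replicates 1, 3, 4 and 5, type II HCs differed in both directions. Over 2758 genes tested, 570 were higher (20.7%) and 433 lower (15.7%) in type II HCs (edgeR). Without replicate 3 the counts were 291 and 217. The libraries of the organs are separate, so organ, dissection and library cannot be told apart from cell type, and few IHCs stand behind each value. The 3 outer hair cell markers, with Slc26a5 at 0 by selection, summed to 63.3, 428, 59.1 and 635 CPM in these IHCs. In type II HCs they summed to 270.3, 530.1, 495.5 and 321 CPM. The 12 supporting cell markers summed to 1488, 364, 248 and 497 CPM in the IHCs. The part of RNA from other cells in this comparison was not tested.

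The largest differences on the type II side were Cib3, at 1802, 948, 751 and 1004 CPM in type II HCs and 0 UMIs in IHCs (at least 167-fold higher), Rprm, at 1021, 600.1, 1122 and 356 CPM (at least 114-fold), Pcdh20, at 631, 628, 485 and 623 CPM (at least 99.04-fold), and the ciliary genes Fam183b (at least 81.96-fold) and Ccdc81 (at least 62.8-fold). Cxcl14, a chemokine gene, was at 2363, 1858, 2412 and 1973 CPM in type II HCs with 1 UMI in IHCs, a pooled ratio of 1011 (95% interval 181 to 39969.7). Rprm encodes reprimo, a p53 target linked to arrest before mitosis, and Pcdh20 a protocadherin. A difference from IHCs need not be particular to type II HCs. In type I HCs Cib3 was at 1597, 1609, 1867 and 1418 CPM, and Rprm at a mean of 102.9 CPM. The kinocilium and motile axoneme genes summed to means of 9531 CPM in type II and 9756 CPM in type I HCs.

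On the IHC side, Rorb, a nuclear receptor gene, was at 2849, 2227, 1819 and 2155 CPM in IHCs and at 0 in all type II HCs (at least 699-fold lower). Ripor3 was at least 109-fold lower and Slc24a3, a sodium, calcium and potassium exchanger gene, at least 43.8-fold lower. Gata3, a zinc finger transcription factor of the auditory system, was at 1013, 370.2, 543 and 635 CPM in IHCs with 1 UMI in type II HCs, a pooled ratio of 440.5 (95% interval 78.3 to 17473). Limd2 and Myl4 also had 1 UMI in type II HCs, with ratios of 545 (95% interval 96.99 to 21594) and 508 (95% interval 90.4 to 20144). These 12 genes had adjusted p-values of 6.51e-09 or below (edgeR), with no overlap of libraries, which their selection required. Otof, high in type II against type I HCs, was at 3324, 2502, 2679 and 2235 CPM in type II HCs and 2374, 1965, 2173 and 3011 CPM in IHCs (log2 fold change 0.199 ± 0.23 (SE), adjusted p = 0.554, edgeR). Calb2 was at 1836, 3052, 3355 and 2099 CPM in IHCs, above the type II level in every library (log2 fold change -3.09 ± 0.29 (SE), adjusted p = 1.08e-08, edgeR).

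The type II HCs were not uniform. Clustered on their own, the 178 cells fell into 2 clusters at the resolution used, called by number and described without a test, because the genes that set them apart also made them. Cluster 0 held 131 cells, 22, 63, 19 and 27 by library, with a median of 4877 UMIs, and cluster 1 held 47 cells, 4, 17, 19 and 7, with a median of 6089 UMIs. Cluster 1 was 15.4%, 21.2%, 50% and 20.6% of the type II HCs of replicates 1, 3, 4 and 5, so replicate 4 differed from the rest in its makeup. 

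Calb2 and Mapt were mostly transcripts of cluster 0. Calb2 was at 626, 399.9, 334 and 397 CPM in cluster 0 and at 0, 85.3, 28.4 and 82.3 CPM in cluster 1, and was seen in 68.7% and 19.1% of their cells. Mapt was at 418, 140.1, 154 and 156 CPM and 107, 23.3, 9.45 and 0 CPM. Ccer2 was at 459, 584, 629 and 482 CPM against 71.3, 69.8, 28.4 and 41.2 CPM, Pdzph1 at 83.5, 105, 244 and 117 CPM against 0 UMIs in cluster 1, and Pou3f2, a POU domain transcription factor gene, at 111, 72.97, 128 and 65.1 CPM against 0, 0, 0 and 0 CPM. Gcnt1, Gsn, Plscr2, Sox4, Sfrp1 and Enho were higher in cluster 0 in each of the 4 libraries, and in supporting cells their means were 53.8, 1037, 141, 108, 646 and 1035 CPM. Spp1 was at 5067, 6500.1, 7269 and 8691 CPM in cluster 0 and at 3244, 2752, 2789 and 2387 CPM in cluster 1.

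Cluster 1 carried Rprm, at 2032, 1838, 1881 and 1152 CPM against 626, 134, 89.9 and 104 CPM in cluster 0, and Ocm, at 819.8, 1318, 813 and 597 CPM against 0, 204, 51.4 and 202 CPM. Fabp5, a fatty acid-binding protein gene, was at 249.5, 481, 652 and 679 CPM against 55.7, 67.1, 38.5 and 45.6 CPM, and Tbx1, a T-box transcription factor gene, at 178, 171, 161 and 165 CPM against 97.4, 5.84, 0 and 0 CPM. Zp3, one of the genes that set type II apart from type I HCs, was at 214, 109, 94.5 and 206 CPM in cluster 1 and at 0, 2.92, 0 and 0 CPM in cluster 0. Calcrl, Galnt3, Otoa, Rgs11, Gm45261 and Gm47775 were higher in cluster 1 in each of the 4 libraries. In supporting cells the means of Galnt3 and Otoa were 252 and 411 CPM. The cluster 1 values of replicate 1 come from 4 cells. The 12 supporting cell markers, 5 of them used by the rule, summed to 640, 566, 501 and 371 CPM in cluster 0 and to 677, 240.4, 577 and 206 CPM in cluster 1, where 5 of them had no UMI, and Sparcl1 was the most abundant in both. Slc1a3 was at 51.1 CPM in cluster 0 and 9.63 CPM in cluster 1 over all cells, and Otog, a gene of the rule, at 3.1 and 57.8 CPM. The part of supporting cell RNA in the division was not tested.

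Of the markers of type II HCs, Anxa4 was at 97.4, 102, 103 and 104 CPM in cluster 0 and at 71.3, 54.3, 28.4 and 82.3 CPM in cluster 1, higher in cluster 0 in every library. Atoh1 was at 69.6, 84.6, 51.4 and 65.1 CPM in cluster 0 and at 178, 62.03, 85.1 and 61.7 CPM in cluster 1, and Sox2, used by the rule, at 626, 692, 527 and 631 CPM and 642, 628, 898 and 556 CPM, each higher in cluster 0 in 2 of the 4 libraries. Cfap45 was at 153, 379, 179.8 and 279.9 CPM and 499, 519, 624 and 597 CPM, higher in cluster 1 in every library. Tmc1, another gene of the rule, was at 432, 315, 398 and 299 CPM and 535, 54.3, 47.3 and 165 CPM.

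**Figure D4:**
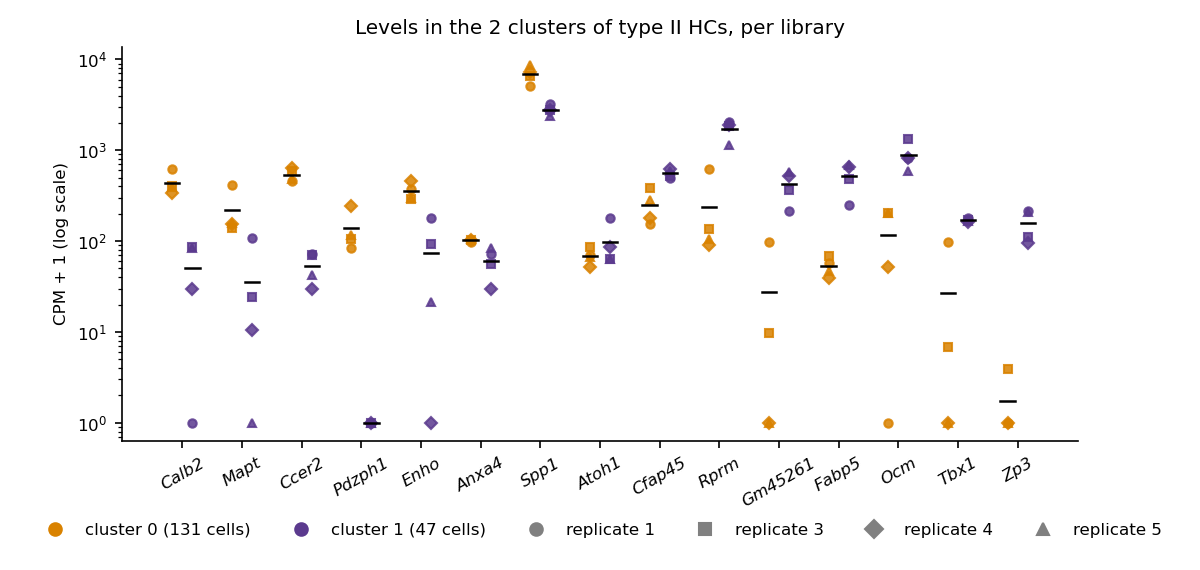
Level of 15 genes (vertical axis, CPM + 1 on a log scale) in cluster 0 (131 cells, orange) and cluster 1 (47 cells, purple) of the type II HCs; points are the 4 libraries and bars their means. Calb2, Ccer2 and Pdzph1 lie higher in cluster 0, Rprm, Fabp5 and Ocm higher in cluster 1, and Atoh1 overlaps.

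Markers of other cell types were read in the type II HCs beside these results. The 12 supporting cell markers, 5 of them used by the rule, summed to 651, 477, 545 and 331 CPM in type II HCs, to 57.2, 238, 189.9 and 68.9 CPM in type I HCs and to a mean of 6621 CPM in supporting cells. All 12 had a UMI in type II HCs, but Otop1 had 1 and Otol1, Otogl and Hes1 had 2 each, under the floor of 3 UMIs. The most abundant was Sparcl1, at 390.4, 248, 316 and 242 CPM against 14.3, 49.99, 47.05 and 20.5 CPM in type I HCs (log2 fold change 2.88 ± 0.26 (SE), adjusted p = 6.54e-08, edgeR) and 838, 744, 1204 and 947 CPM in supporting cells, while Slc1a3, Gjb2 and Gjb6, the other 3 that were tested, did not pass the threshold (adjusted p between 0.688 and 0.872, edgeR). In the cells without any supporting cell gene the sum was 395 CPM, with the 5 markers used by the rule at 0 by selection. The part of supporting cell RNA in the genes shared with supporting cells was not tested.

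Of 6 macrophage markers, Cx3cr1 was at 0 and the sum was 10.01, 19.1, 125 and 4.95 CPM, led by C1qa at 13.9 CPM. The 4 red blood cell markers summed to 70.1, 9920, 272 and 277 CPM, led by Hbb-bs, and 1 cell of replicate 3, in cluster 0, held 3047 of the 3184 Hbb-bs UMIs of all type II HCs. Against type I HCs, Hbb-bs and Hba-a1 did not pass the threshold (adjusted p = 0.607 and 0.604, edgeR) but were lower in type II HCs with the library as a replicate block (0.0195 and 0.0343), Hbb-bt passed in neither fit, and Hba-a2 was not tested. The 5 neuron markers were at 90.1 CPM in replicate 1 and at 0 in the other 3 libraries, with Thy1 and Prph at 0 in all. The 5 myelinating glia markers summed to 120.1, 27.6, 65.3 and 14.8 CPM, with Mag at 0 and Mbp the most abundant. Replicate 1 was thus highest in neuron and glia markers, and it was also highest in Mapt, Map2 and Kcnv1; the part of nerve RNA in these was not tested. The 4 granulocyte markers summed to 0, 48.8, 21.8 and 44.5 CPM in type II HCs and to 3.58, 1429.7, 708 and 30.2 CPM in type I HCs. S100a9, the most abundant of them in type II HCs, was lower there than in type I HCs (log2 fold change −4.23, adjusted p = 0.0177, edgeR), but not without replicate 4 (adjusted p = 0.0849, edgeR) or in DESeq2 (0.0854). The part of granulocyte RNA in the comparison with type I HCs was not tested. Markers of fibroblasts, endothelial cells, dark cells and melanocytes summed to at most 97.5 CPM in any library of type II HCs.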

How the data were processed

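Droplet libraries of old mouse cochlea and vestibule were analysed. The deposited counts are raw UMI counts per gene and barcode, which the authors made with Cell Ranger from reads aligned to mm10; per the file headers the version was 5.0.1 for replicates 1 and 2, and 6.1.2 otherwise. Nothing was normalized before deposit. A barcode was kept with 200 or more genes, 1000 or more UMIs and under 25% mitochondrial UMIs. No doublet caller was run, and the limit on supporting cell genes removed 343 mixed HCs. Type I HCs had the same HC rule with Adam11 and no Sox2, supporting cells had at least 2 of the 5 supporting cell genes and at most 1 HC gene, and IHCs were gated in the cochlea with Slc17a8 and no Slc26a5. The members, gene lists, markers and rules were chosen with earlier results of these data known.

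UMIs were summed per library and population and tested in edgeR 4.0.16 (R 4.3.3; TMM, filterByExpr, quasi-likelihood, adjusted p under 0.05, n = 4 a group). Levels are CPM, with 3 UMIs as the floor, and intervals are exact at 95% for counting error only. Same-library type II and type I sums deviated together (correlations 0.218, 0.149, 0.191 and 0.21), and the cells of a library share mice, dissociation and droplet run. A fit with the library as a replicate block was an alternative. Named genes were the 12 largest changes in each direction (6 in the other comparisons) that passed, did not overlap and reached 20 CPM, and, of those higher than in type I HCs, were below the type II level in supporting cells; also the 15 most abundant genes, all markers, and of 26 lists the 3 most abundant and the 3 largest changes a direction. Some called list members beyond these were named after their values were seen. Some genes that these rules select are not reported here. Members were clustered in Seurat 5.3.0 (2000 variable genes, 30 components, resolution 0.5). Gene positions are from GENCODE M21. The fits were tested on simulated data. Of genes changed there by a log2 fold of 2, 90.6%, 98.6% and 96.0% were recovered against type I HCs, supporting cells and IHCs. Unchanged genes were 2.98%, 3.97% and 7.62% of the calls. The simulated libraries were drawn independently, without the shared deviations of same-library sums. Alternatives were DESeq2 1.42.0, no TMM, no filter, each library left out, other gates and thinning to 1000 UMIs.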

Additional observations from a re-analysis of the deposited data

Results flagged for a closer look

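Leaving out the genes of the rule, the level of each named gene and each marker list was compared over the 4 type II libraries, 61 sets of 4 values, of which chance alone flags about 1 in 20, and 3 had a library far from the others. The red blood cell markers were at 9920 CPM in replicate 3 and at most 277 CPM elsewhere. The macrophage markers were at 125.2 CPM in replicate 4 and at most 19.1 CPM elsewhere. The neuron markers were at 90.1 CPM in replicate 1 and 0 elsewhere. In each case the rest of the cells' profile was not tested for the same source.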

How the results depend on the processing

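Gating after thinning to 1000 UMIs left 48 type II HCs of 178, and 165 genes higher and 135 lower than in type I HCs, 628 and 908 against supporting cells, and 219 and 152 against IHCs, with fewer cells and fewer genes tested. Without a filter on low counts, 807 genes were lower than in type I HCs, 2042 higher and 2916 lower than in supporting cells, and 1412 higher and 721 lower than in IHCs. With mitochondrial UMIs under 10%, 359 and 254 genes differed from IHCs; the cause was not tested. Leaving out each replicate in turn gave 356 to 670 higher and 293 to 551 lower genes against type I HCs, and 291 to 771 higher and 217 to 605 lower against IHCs, the lowest without replicate 3. With the replicate block 776 genes were higher and 692 lower than in type I HCs, and against supporting cells 1419 and 1560, against IHCs 591 and 470. The block took no call from the 179 comparisons of named genes and brought 14 more past the threshold. Whether cochlear and vestibular libraries of the same number share mice was not given in the sources used here. No named gene past the threshold changed direction, and 104 of 137 calls kept their side of the threshold in each alternative that tested them. Depth limits low genes: 30.03 CPM stand for 3 type II UMIs in replicate 1.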
